A study of Mus musculus with 12 samples.

Results

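Transforming growth factor beta (TGF-beta) signalling was followed through 9 of the 17052 genes in the deposited table: the ligands Tgfb1, Tgfb2 and Tgfb3, the latent binding protein Ltbp2, the activator Thbs1, the receptors Tgfbr1 and Tgfbr2, the inhibitor Smad7 and the target Ctgf. They were taken by gene symbol. Left ventricles came from C57BL/6 mice, with 3 mice and 3 libraries in each of 4 groups. Surgery took place at 8 weeks of age and the ventricle was taken at 12 weeks. Transverse aortic constriction (TAC) was made with a ligating clip on the aortic arch, and sham mice were operated on without the ligation. Mice of the Sham+pimobendan and TAC+pimobendan groups received 1 mg/kg/day of pimobendan, a calcium sensitizer and phosphodiesterase inhibitor, for 4 weeks. Mice of the Sham+control and TAC+control groups did not, and the labels name no vehicle for them. The title of the series puts the question of whether the drug limits the hypertrophy of pressure overload.

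TGF-beta is secreted as an inactive complex held in the matrix by latent binding proteins, and thrombospondin 1, the product of Thbs1, is among the proteins that can release it. The free ligand joins the type II receptor Tgfbr2 to the type I receptor Tgfbr1, a kinase that phosphorylates SMAD proteins, and these enter the nucleus and switch on genes such as Ctgf, which codes for a matricellular protein. Smad7 is induced by the same signal and blocks the receptor, and in the pressure-loaded heart the pathway is best known for turning fibroblasts into matrix-producing cells.

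The genes lie apart in the genome (GRCm38 positions as deposited). Tgfb1 is at chr7:25687002-25705077, Tgfb2 at chr1:186622787-186707033, Tgfb3 at chr12:86056743-86079041 and Ltbp2 at chr12:84783212-84877270. Thbs1 is at chr2:118111876-118127133, Tgfbr1 at chr4:47353222-47414926, Tgfbr2 at chr9:116087695-116175363, and Ctgf at chr10:24595442-24598683. Values are sums over whole genes, so no exon, intron or untranslated region is resolved.

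The 250 bases before the annotated start of Tgfb1, Tgfbr1 and Tgfbr2 are given so that 1 ligand and its receptor pair can be compared there. They are RefSeq sequences of GRCm38.p6, 5′ to 3′ on the strand of the gene, at chr7:25686752-25687001 (plus strand), chr4:47352972-47353221 (plus strand) and chr9:116175364-116175613 (minus strand). Capitals mark GGGCGG, the GC box, read on either strand.
Tgfb1: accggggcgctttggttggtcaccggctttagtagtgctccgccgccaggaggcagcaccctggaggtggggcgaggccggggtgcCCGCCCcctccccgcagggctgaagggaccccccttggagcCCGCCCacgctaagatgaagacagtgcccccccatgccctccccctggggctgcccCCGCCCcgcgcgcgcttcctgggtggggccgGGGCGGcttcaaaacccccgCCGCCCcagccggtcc
Tgfbr1: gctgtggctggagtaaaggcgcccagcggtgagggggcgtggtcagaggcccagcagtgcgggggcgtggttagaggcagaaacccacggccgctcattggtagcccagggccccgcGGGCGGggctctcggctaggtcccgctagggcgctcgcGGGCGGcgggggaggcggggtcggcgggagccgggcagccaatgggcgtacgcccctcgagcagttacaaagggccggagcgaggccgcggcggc
Tgfbr2: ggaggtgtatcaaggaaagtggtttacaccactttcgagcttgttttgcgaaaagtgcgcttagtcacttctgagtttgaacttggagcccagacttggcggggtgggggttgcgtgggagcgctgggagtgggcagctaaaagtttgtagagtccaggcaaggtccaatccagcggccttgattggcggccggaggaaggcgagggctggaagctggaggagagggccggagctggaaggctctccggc

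Of the 9 genes, 5 had a promoter entry of 250 bases before and 50 bases after the start. GC content over the whole window was 77.0% for Tgfb1, 74.7% for the first start site of Tgfbr1 and 59.0% for Tgfbr2, which placed them at the percentiles 97.6, 95.8 and 68.1 of 32851 mouse promoters of the same length. The GC box occurred 6 times in the Tgfb1 window, 2 times in that of Tgfbr1 and 0 times in that of Tgfbr2, and 35.7% of all promoters held it. It was added to the motifs after the sequences had been read. The SMAD element CAGACA, which 21.0% of all promoters hold, was absent from these 3 windows and occurred once in that of Tgfb2 and once at the second start site of Tgfbr1. Neither the SMAD palindrome GTCTAGAC (0.213% of promoters), the TEAD element GGAATG (14.7%) nor the AP-1 element TGANTCA (7.81%) was found in any window of these genes. All motifs were searched on both strands, and a match describes letters only.

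All values are FPKM, fragments scaled to transcript length and to the mapped fragments of a library, which allows levels of different genes to be compared per length. Ctgf was the highest of the 9 genes, with a mean of 52.2 ± 26.2 FPKM (SD, n = 12), followed by Tgfb1 at 23.1 ± 5.29 and Tgfbr2 at 18.2 ± 1.63 FPKM. Thbs1 averaged 12.4 ± 10.7 FPKM, Tgfb3 5.89 ± 0.801 and Smad7 4.64 ± 0.724 FPKM. Tgfbr1 (2.43 ± 0.691 FPKM) and Tgfb2 (2.34 ± 0.459 FPKM) lay close together and took the higher place in 6 of 12 libraries each. Ltbp2 was lowest at 0.521 ± 0.203 FPKM. Neighbours in this order overlapped in range over the 12 libraries for every pair except Tgfb2 and Ltbp2. Smad7 was still above Tgfbr1 within each of the 12 libraries, and Ctgf was above Tgfb1 in 11 of 12. The type II receptor transcript was several times more abundant per length than the type I receptor transcript in every group.

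**Figure D1:**
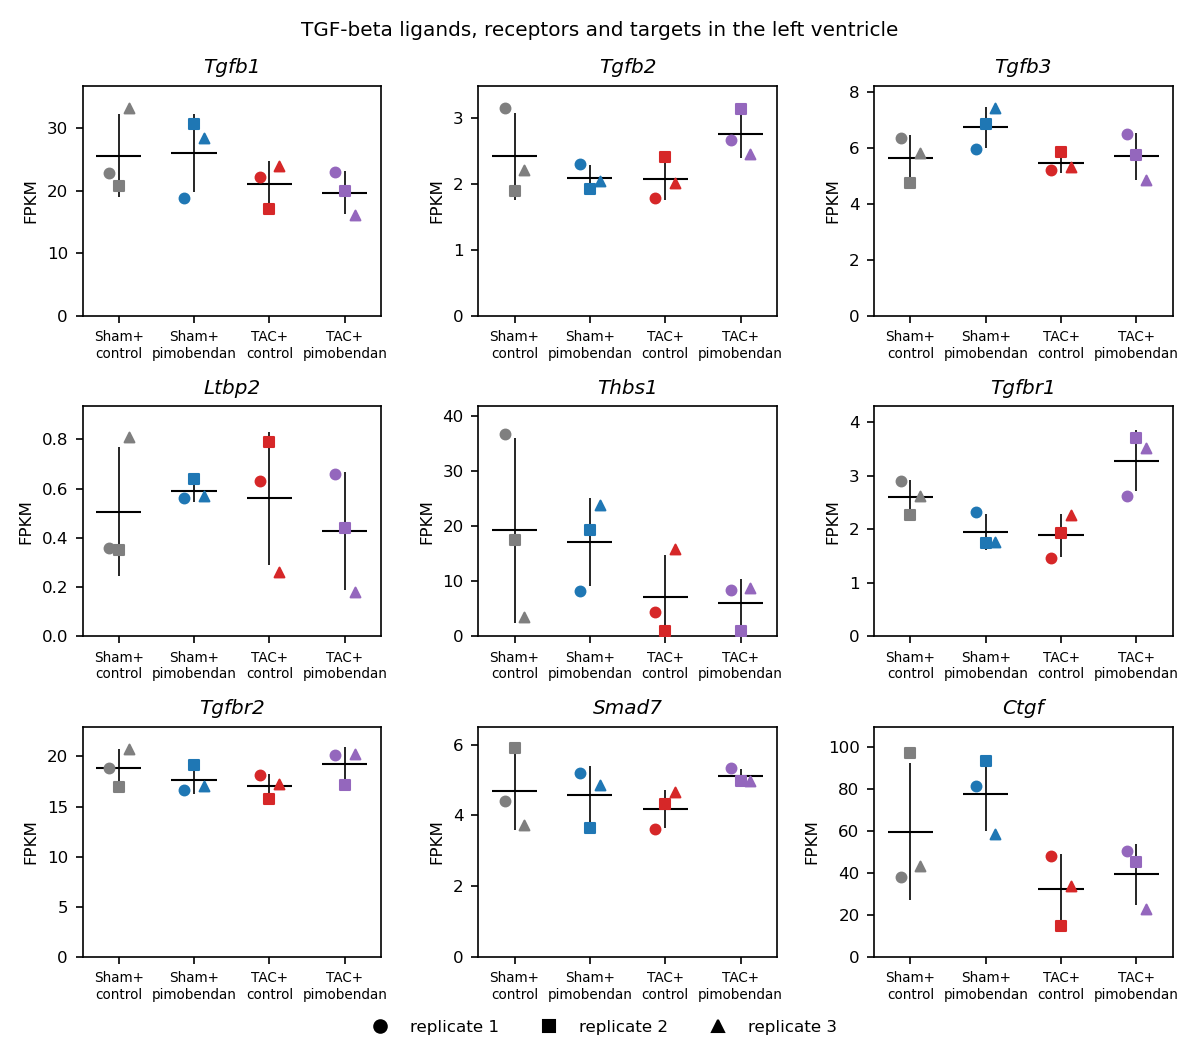
FPKM of the 9 genes (vertical axes, linear from 0) in the 4 groups; each symbol is 1 mouse, the horizontal line the mean and the vertical line the SD of 3 mice. Tgfbr1 in TAC+pimobendan (2.63 to 3.7 FPKM) sits above both TAC+control and Sham+pimobendan, while Thbs1 spreads from 0.96 to 36.76 FPKM.

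The libraries differed in ways that touch these genes. The steps between low FPKM values gave an estimate of 9100000 to 12800000 counted fragments per library. At that depth Ltbp2 rested on 12 to 59 fragments, Tgfbr1 on 86 to 204 and Tgfb2 on 93 to 182, while Tgfbr2 rested on 1253 to 1846. How far a library's genes lay from their 12-library average was related to transcript GC content, with a Spearman's rho across genes of -0.52 to -0.19 in TAC+pimobendan, 0.0055 to 0.28 in TAC+control, 0.14 to 0.52 in Sham+pimobendan and -0.34 to 0.45 in Sham+control. The cardiomyocyte list (7 genes) summed to between 31913 and 40711 FPKM. Between TAC+pimobendan and TAC+control Pln was called higher and Actc1 lower, and Pln was also called higher than in Sham+pimobendan. The lymphocyte genes Cd3e, Cd3d, Cd79a and Ms4a1 averaged under 1 FPKM in every group. Of the atrial genes, Sln averaged at most 0.313 FPKM in any group, Myl7 1.33 FPKM in TAC+control and at most 0.58 elsewhere, and Myl4 between 1.90 and 2.21 FPKM. The 4 mesothelial genes summed to between 1.04 and 3.94 FPKM, and no atrial or mesothelial gene that was tested was called. The erythroid list (6 genes) summed to between 4199 and 6702 FPKM in TAC+control and to at most 3063 FPKM in any other group, and Alas2 was called lower in TAC+pimobendan than in TAC+control. The calls of Pln, Actc1 and Alas2 stand beside 3.27% of all genes called against TAC+control and 4.89% against Sham+pimobendan. With each library's trend on transcript GC content removed, 0 genes were called in either comparison. In whole ventricle, fewer cells of a type and less RNA per cell cannot be told apart.

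Differences between groups were taken from limma on log2(FPKM + 1), and a gene was called at a Benjamini-Hochberg adjusted p under 0.05 over the 11415 genes that reached 1 FPKM in 3 or more libraries. Ltbp2 missed that filter, so 8 of the 9 genes were tested. None of the 8 was called in any comparison. Over all genes 0% were called between TAC+control and Sham+control, 3.27% between TAC+pimobendan and TAC+control, 0% between Sham+pimobendan and Sham+control, and 4.89% between TAC+pimobendan and Sham+pimobendan. The difference between both TAC effects, called the interaction here, and the mean TAC effect over both drug arms each called 0%, and the mean pimobendan effect 0.00876%. Tgfbr1 had an unadjusted p under 0.05 in 4 of these 7 comparisons, Ctgf in 2 and Thbs1 in 1, and the other 5 tested genes in none. Over all genes the share with an unadjusted p under 0.05 was 8.33% for TAC+control against Sham+control, 26.6% for TAC+pimobendan against TAC+control, 4.54% for Sham+pimobendan against Sham+control and 22.9% for TAC+pimobendan against Sham+pimobendan. It was 20.3% for the interaction, 14.1% for the mean TAC effect and 12% for the mean pimobendan effect.

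**Figure D2:**
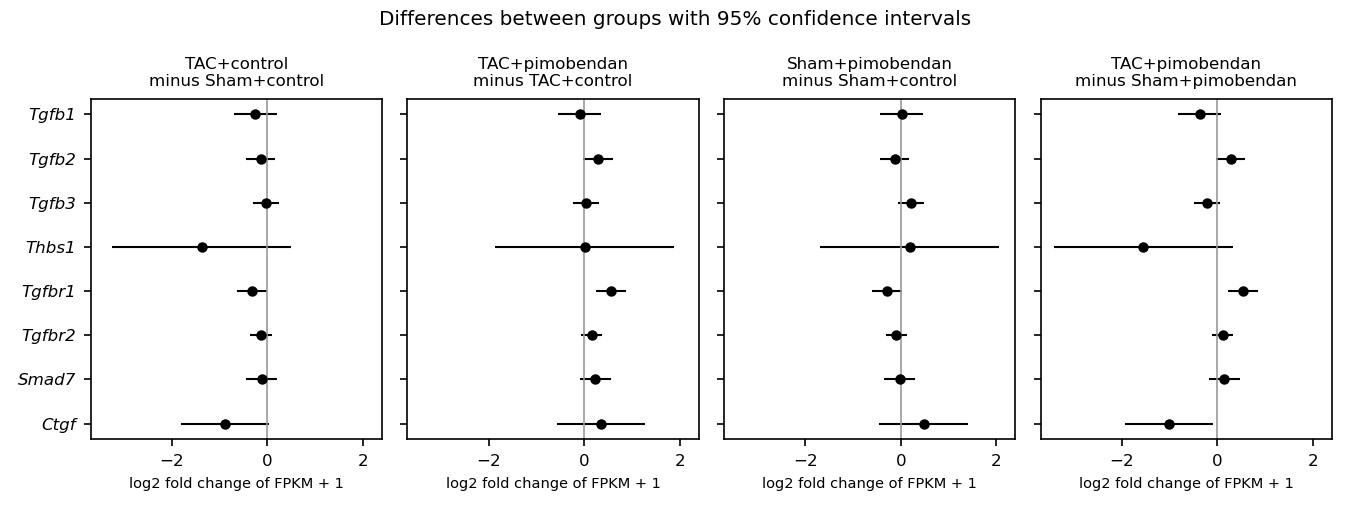
Log2 fold changes of FPKM + 1 (horizontal axes) with 95% confidence intervals for the 8 tested genes in 4 comparisons of 3 mice against 3. The intervals are not adjusted for the number of genes, and none of these genes was called. Those of Tgfbr1 lie above 0 in both comparisons with TAC+pimobendan and below 0 between TAC+control and Sham+control. That of Ctgf lies below 0 between TAC+pimobendan and Sham+pimobendan, and those of Thbs1 are the widest in every panel.

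None of the 3 ligands passed the test in any comparison. Tgfb1, the main isoform of the adult heart, measured 22.88, 20.67 and 33.14 FPKM in Sham+control, against 22.17, 17.02 and 24.0 FPKM in TAC+control. With the drug it measured 18.89, 30.67 and 28.41 FPKM in Sham+pimobendan and 22.95, 19.96 and 16.08 FPKM in TAC+pimobendan. All groups overlapped, although the 3 values above 25 FPKM were all from sham mice. The mean TAC effect on Tgfb1 was -0.31 ± 0.15 (log2, SE; adjusted p = 0.361), with -0.25 ± 0.21 without the drug and -0.37 ± 0.21 with it. Its spread within groups, an SD of 0.30 on the log2 scale, stood at the 92.5th percentile of all tested genes, whose median was 0.15.

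Tgfb2, an isoform best known from heart development, measured 3.16, 1.89 and 2.21 FPKM in Sham+control, against 1.79, 2.41 and 2.01 FPKM in TAC+control. Under pimobendan it measured 2.31, 1.93 and 2.05 FPKM in Sham+pimobendan and 2.67, 3.14 and 2.45 FPKM in TAC+pimobendan. The 3 TAC+pimobendan values lay above all 3 TAC+control values and all 3 Sham+pimobendan values, and within the range of Sham+control. The log2 difference was 0.29 ± 0.14 against TAC+control (adjusted p = 0.213) and 0.28 ± 0.14 against Sham+pimobendan (adjusted p = 0.271), and neither passed the test. With the trend on transcript GC content removed these values were 0.13 and 0.18.

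Tgfb3, the third isoform, ranged from 4.75 to 7.42 FPKM over all libraries. Its group means were 6.74 ± 0.736 FPKM in Sham+pimobendan, 5.70 ± 0.826 in TAC+pimobendan, 5.65 ± 0.828 in Sham+control and 5.47 ± 0.343 in TAC+control (SD, n = 3). Between the highest and the lowest of these groups the gap was small, with 5.96 FPKM as the lowest value in Sham+pimobendan and 5.86 FPKM as the highest in TAC+control. The largest difference of Tgfb3 was 0.22 ± 0.13 on the log2 scale, for the drug in sham mice, among the 4 comparisons between 2 groups.

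Of the genes that hold and release the ligand, Ltbp2 was near the limit of detection. It measured 0.36, 0.35 and 0.81 FPKM in Sham+control, against 0.63, 0.79 and 0.26 FPKM in TAC+control. Under pimobendan the values were 0.56, 0.64 and 0.57 FPKM in Sham+pimobendan and 0.66, 0.44 and 0.18 FPKM in TAC+pimobendan. Every pair of groups overlapped. In a fit without the filter on low values the TAC effect was 0.05 ± 0.16 without the drug and -0.17 ± 0.16 with it (adjusted p = 0.979 and 0.616). At about 44 fragments per library, counting alone gives a coefficient of variation of 15.2%, so a change of that order was not detectable at this depth.

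Thbs1 varied most of all. It measured 36.76, 17.38 and 3.49 FPKM in Sham+control, against 4.49, 0.96 and 15.75 FPKM in TAC+control. Mice given pimobendan had 8.24, 19.27 and 23.89 FPKM in Sham+pimobendan and 8.44, 1.01 and 8.74 FPKM in TAC+pimobendan. The highest library was 38.3 times the lowest, and mice of the same group differed by 2.90-fold to 16.4-fold. The median library held an estimated 557 fragments of the gene, for which counting alone gives a coefficient of variation of 4.24%. The SD of Thbs1 within groups was 1.33 on the log2 scale, at the 99.9th percentile of all tested genes. Its group means were 19.2 and 17.1 FPKM in the sham groups and 7.07 and 6.06 FPKM in the TAC groups, with overlap in every comparison. The mean TAC effect was -1.46 ± 0.61 (log2, SE; 95% confidence interval -2.79 to -0.14; adjusted p = 0.323).

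Thbs1 moved with the immediate early genes, which are switched on within minutes of a stimulus or of tissue handling. A score over 17 of them, the mean log2 deviation from the average of the 12 libraries, was 1.00, 1.26 and -0.71 in Sham+control, against -1.12, -1.21 and 0.80 in TAC+control. With the drug the score was 0.51, -0.28 and 0.36 in Sham+pimobendan and -0.38, -0.73 and 0.50 in TAC+pimobendan. The 4 libraries with the lowest scores (Sham+control 3, TAC+control 1 and 2, and TAC+pimobendan 2) were also the 4 lowest in Thbs1. Within TAC+control the third library stood apart in both, with a score of 0.80 beside 15.75 FPKM. Of the 17 genes, 16 were lower in TAC+control than in Sham+control, with 0 called, while 34.9% of all genes were higher. The summed level of the 17 genes ranged from 523 to 1955 FPKM in TAC+control, from 807 to 2828 FPKM in Sham+control, from 1083 to 1781 FPKM in Sham+pimobendan and from 819 to 1772 FPKM in TAC+pimobendan. The part of these genes in the Thbs1 result was not tested.

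**Figure D3:**
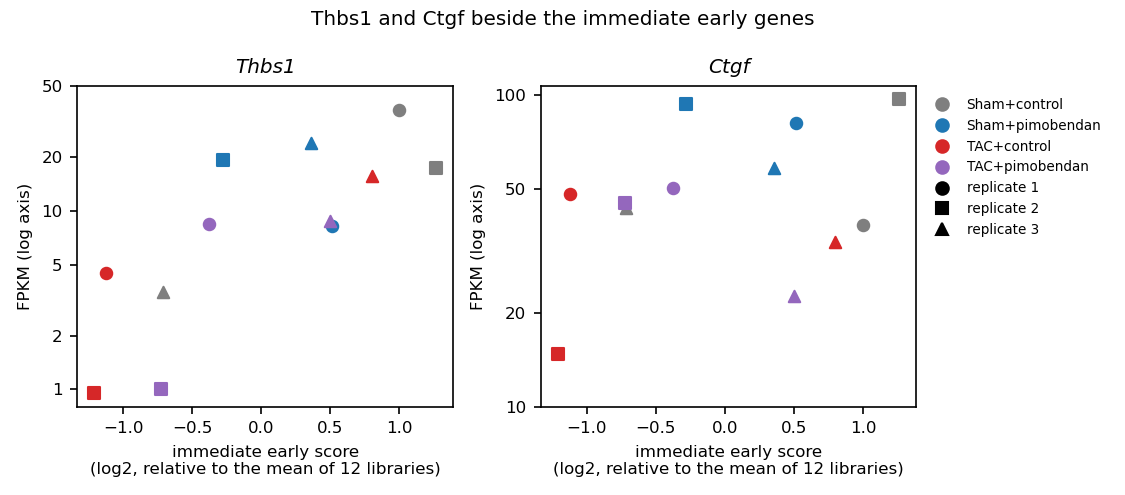
FPKM of Thbs1 and of Ctgf (vertical, log axes) against the immediate early score of the same library (horizontal, log2); each symbol is 1 of 12 libraries, coloured by group. The 4 lowest Thbs1 libraries are the 4 with the lowest scores, while Ctgf in those 4 libraries covers 14.79 to 48.07 FPKM.

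Platelets also carry thrombospondin 1. Of 6 platelet genes, Itga2b, Gp9, Gp1ba and Gp1bb averaged under 1 FPKM in 3 of the 4 groups, and in TAC+control only Gp1ba did. None was at 0 in all libraries, and none of the 3 tested was called. The list summed to 47.0, 37.9 and 124 FPKM in TAC+control, where the highest sum was that of the third library, the one that also stood apart in Thbs1 and in the immediate early score. The sums lay between 38.3 and 44.0 in Sham+control, 30.6 and 50.8 in Sham+pimobendan, and 37.2 and 43.8 in TAC+pimobendan. On average Pf4 made up most of them, with 50.5 FPKM in TAC+control, 36.4 in Sham+control, 40.0 in Sham+pimobendan and 36.2 in TAC+pimobendan. The part of the platelet list in the Thbs1 values was not tested.

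The type I receptor Tgfbr1 came closest to a call. It measured 2.9, 2.27 and 2.62 FPKM in Sham+control, against 1.47, 1.93 and 2.26 FPKM in TAC+control. With the drug it measured 2.33, 1.74 and 1.76 FPKM in Sham+pimobendan and 2.63, 3.7 and 3.52 FPKM in TAC+pimobendan. The 3 TAC+control values lay below all 3 Sham+control values, which among the 8 genes held for Tgfbr1 only and among all genes for 9.74% (the opposite held for 0 of the 8 and for 3% of all genes). The 3 TAC+pimobendan values lay above all 3 values of TAC+control and of Sham+pimobendan, while they overlapped Sham+control. The log2 difference was 0.57 ± 0.14 (SE, 1.48-fold in FPKM + 1) between TAC+pimobendan and TAC+control. Between TAC+pimobendan and Sham+pimobendan it was 0.54 ± 0.14 (1.45-fold in FPKM + 1), and both had an adjusted p of 0.0501. At levels this low, these folds understate the fold of FPKM itself. Without the drug, the TAC effect was -0.32 ± 0.14 (adjusted p = 0.591), and in sham mice the drug effect was -0.29 ± 0.14 (adjusted p = 0.91). The interaction was 0.86 ± 0.20 (95% confidence interval 0.42 to 1.30; adjusted p = 0.0853). The 3.28 ± 0.573 FPKM of TAC+pimobendan was the highest group mean, followed by 2.60 ± 0.316 in Sham+control, and the means of Sham+pimobendan (1.94 ± 0.335) and TAC+control (1.89 ± 0.397) did not differ beyond their spread (SD, n = 3).

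The Tgfbr1 values depended on the libraries and on the scaling. Over the 6 libraries that can each be left out, the difference from TAC+control ranged from 0.46 (without TAC+control replicate 1; adjusted p = 0.156) to 0.68, and that from Sham+pimobendan from 0.47 (without TAC+pimobendan replicate 2; adjusted p = 0.193) to 0.65. The threshold was passed in 1 of these 6 fits in each comparison, and in the others the adjusted p reached 0.171 and 0.205. Leaving out TAC+pimobendan replicate 1, the lowest of its group, was that fit and gave 0.68 against TAC+control, 0.65 against Sham+pimobendan and 0.98 for the interaction, with adjusted p of 0.0164, 0.0172 and 0.0192. That fit called 1190, 1225 and 773 of the 11415 genes in the same order. Removing each library's trend on transcript GC content gave 0.24, 0.19 and 0.44, with adjusted p of 0.271, 0.467 and 0.264. Quantile normalization gave 0.35 against TAC+control (adjusted p = 0.195), where the median of all genes moved from 0.10 to -0.02, and the deposited TPM gave 0.70 (adjusted p = 0.0349) with that median at 0.17. The longest Tgfbr1 transcript has a GC content of 41.0%, the lowest of the 9 genes and at the 7.71th percentile of the tested genes, whose median is 50.1%. Its first promoter, printed above, is among the richest in GC. By the same step the difference between TAC+pimobendan and TAC+control went from 0.29 to 0.13 for Tgfb2 (GC content 46.9%), from 0.35 to 0.24 for Ctgf (49.2%), from 0.16 to 0.065 for Tgfbr2 (49.6%) and from 0.012 to -0.079 for Thbs1 (49.9%). It went from -0.095 to -0.14 for Tgfb1 (52.5%) and from 0.046 to 0.0092 for Tgfb3 (53.0%), and stayed at 0.24 for Smad7 (56.9%). Thus 7 of the 8 values became lower, those of genes near the median GC content included. The same step moved the median of all genes in this comparison from 0.10 to -0.02.

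**Figure D4:**
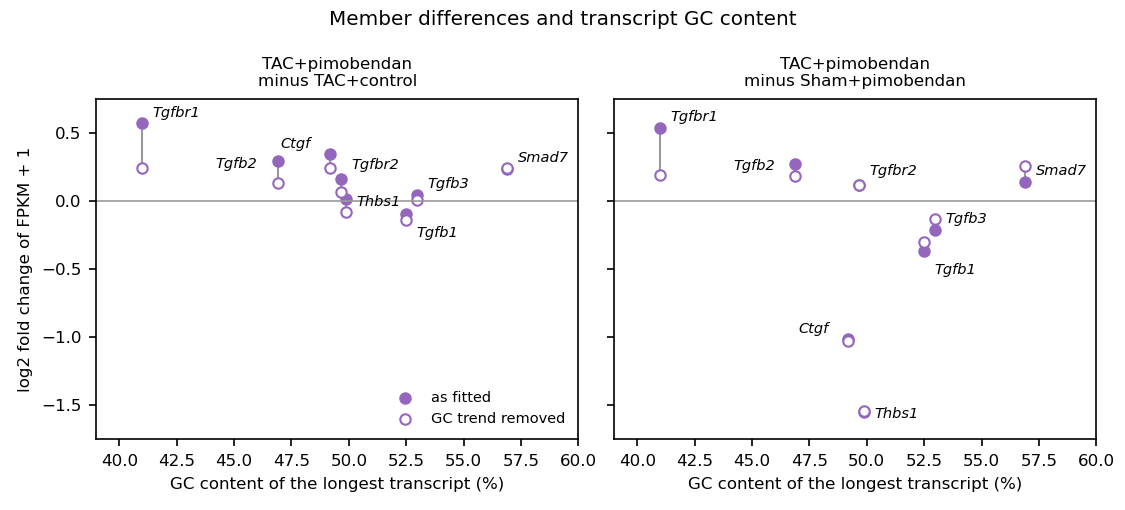
Log2 fold changes of FPKM + 1 for the 8 tested genes (vertical) against the GC content of their longest transcript in percent (horizontal), as fitted (filled) and with the GC trend of each library removed (open). Tgfbr1 at 41.0% drops from 0.57 to 0.24 in the left panel and from 0.54 to 0.19 in the right one.

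The type II receptor Tgfbr2 was the steadiest of the genes. It measured 18.88, 16.96 and 20.73 FPKM in Sham+control, against 18.16, 15.8 and 17.23 FPKM in TAC+control. Under pimobendan the values were 16.68, 19.16 and 17.03 FPKM in Sham+pimobendan and 20.19, 17.16 and 20.28 FPKM in TAC+pimobendan. All groups overlapped, and the SD within groups was 0.12 on the log2 scale, at the 27.4th percentile of all tested genes. The log2 difference between TAC+pimobendan and TAC+control was 0.16 ± 0.10 (95% confidence interval -0.06 to 0.38). The interval of the TAC effect without the drug ran from -0.36 to 0.09.

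Smad7, the inhibitor, measured 4.4, 5.9 and 3.74 FPKM in Sham+control, against 3.6, 4.32 and 4.65 FPKM in TAC+control. With the drug it measured 5.21, 3.63 and 4.87 FPKM in Sham+pimobendan and 5.34, 4.98 and 4.98 FPKM in TAC+pimobendan. TAC+pimobendan lay above all of TAC+control and overlapped both sham groups. The log2 difference from TAC+control was 0.24 ± 0.15 (adjusted p = 0.335), and the difference between TAC+control and Sham+control was -0.12 ± 0.15 (adjusted p = 0.835).

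Ctgf, the target, was lower on average after TAC in both drug arms. It measured 38.19, 97.12 and 43.43 FPKM in Sham+control, against 48.07, 14.79 and 33.85 FPKM in TAC+control. Mice given pimobendan had 81.45, 93.39 and 58.21 FPKM in Sham+pimobendan and 50.14, 44.9 and 22.66 FPKM in TAC+pimobendan. The TAC+pimobendan values lay below all of Sham+pimobendan, whereas TAC+control and Sham+control overlapped. The TAC effect was -0.89 ± 0.43 (adjusted p = 0.605) without the drug and -1.02 ± 0.43 (adjusted p = 0.178) with it. Their mean was -0.95 ± 0.30 (0.517-fold in FPKM + 1, 95% confidence interval -1.61 to -0.30), with an adjusted p of 0.248. The drug effect on Ctgf was 0.48 ± 0.43 in sham mice and 0.35 ± 0.43 in TAC mice, neither larger than the spread between mice. Leaving out TAC+control replicate 2, the lowest library at 14.79 FPKM, gave a TAC effect without the drug of -0.42 and a drug effect in TAC mice of -0.12. Within groups Ctgf had an SD of 0.65 on the log2 scale, the 99.1th percentile of tested genes.

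Read as a set, the 8 tested genes were all lower on average in TAC+control than in Sham+control, with a median log2 difference of -0.20, beside -0.06 over all genes, of which 34.9% were higher; Tgfb3 took the other sign under median-ratio scaling, quantile normalization and removal of the GC trend. Between TAC+pimobendan and TAC+control 7 of the 8 had a log2 difference above 0, with a median of 0.20 beside 0.10 over all genes, of which 66% were above 0. The 7 include Thbs1 at 0.012, whose mean FPKM was lower in TAC+pimobendan, so that by mean FPKM 6 were higher. Tgfb3 and Thbs1 took the other sign under median-ratio scaling and quantile normalization, and Thbs1 also with the GC trend removed. Both comparisons share the TAC+control libraries. Tgfb2, Tgfbr1 and Smad7, 3 of the 8, lay wholly above TAC+control in TAC+pimobendan, as did 23.3% of all genes, and 0 of the 8 lay wholly below, beside 6.64%. Tgfb2 and Tgfbr1, 2 of the 8, lay wholly above Sham+pimobendan in TAC+pimobendan, beside 18.6% of all genes, and Ctgf, 1 of the 8, wholly below, beside 9.35%. Between Sham+pimobendan and Sham+control 0 of the 8 lay wholly above or below, beside 6.16% and 4.98% of all genes. The log2 difference there was above 0 for 4 of the 8, Thbs1 among them, while by mean FPKM 3 were higher and 5 lower. With 8 genes, these counts were not set apart from the shares over all genes.

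Among themselves the genes were loosely tied over the 12 libraries. Of the 28 pairs, Tgfb2 and Tgfbr1 had the highest Pearson r of log2 values, 0.77 (Spearman's rho 0.82), and 0.57 after the group means were removed. Tgfb1 and Tgfbr1 had r = -0.35, Tgfb1 and Ctgf 0.45, and Ctgf and Thbs1 0.45. The receptor pair Tgfbr1 and Tgfbr2 had r = 0.32 overall and -0.30 within groups. Within groups the pairs furthest from 0 were Tgfbr2 and Smad7 (-0.72) and Tgfb1 and Tgfbr2 (0.60). These values describe 12 libraries that also differ in group, depth and GC trend.

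Outside the 9 genes, each tested gene had closest companions over the 12 libraries by Pearson r of log2(FPKM + 1). They were Maz (0.98), Gnai2 (0.95) and Fscn1 (0.95) for Tgfb1, Mtpap, Vps4b and Tmtc2 (0.92 each) for Tgfb2, and Sept5 (0.94), Angpt2 (0.91) and Arf4 (0.87) for Tgfb3. For Thbs1 they were Errfi1 (0.97), Dennd3 (0.94) and the immediate early gene Egr2 (0.94). Tgfbr1 was followed most closely by Tnrc6a, Pwwp2a and Calcrl (0.95 each), and Tgfbr2 by Spats2 (0.91), Cd180 (0.85) and Cbl (0.84). Ctgf was followed by Psph (0.92), Spry1 (0.92) and Arhgap27 (0.91), and Smad7 by Plpbp (0.88), Foxo3 (0.83) and Igsf23 (0.83). Each name is the top of a ranking over 11415 genes on 12 libraries and is given as a description.

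The rest of the pathway was described with 63 further genes in 5 lists, of which 56 were tested. In TAC+pimobendan against Sham+pimobendan 2 of 8 receptors rose and 1 of 17 target genes fell. These 3 of 56 are a share near the 4.89% called over all genes. In the 3 other comparisons between 2 groups 0 of the 56 were called. Bmpr2, the type II receptor for bone morphogenetic proteins, measured 6.72, 9.09 and 10.46 FPKM in TAC+pimobendan and 4.97, 4.91 and 4.54 in Sham+pimobendan, a log2 difference of 0.73 ± 0.15 (adjusted p = 0.0314). Acvr2a, an activin type II receptor, measured 2.5, 3.97 and 4.31 FPKM against 1.52, 1.58 and 1.77, a difference of 0.79 ± 0.18 (adjusted p = 0.0341). In both, every TAC+pimobendan value lay above every Sham+pimobendan value, as for Tgfbr1 and for 18.6% of all genes. Both were named because they were called in this comparison, so the separation adds no support. Acta2, which codes for smooth muscle actin and marks myofibroblasts as well as vessel walls, measured 54.87, 34.42 and 21.07 FPKM against 94.84, 99.14 and 186.54, a difference of -1.79 ± 0.37 (adjusted p = 0.0314). The remaining counts were 0 of 14 in the latent complex and activation list, 0 of 6 SMADs and 0 of 11 brakes and corepressors.

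These calls were near the threshold. The GC content of the longest transcript was 41.0% for Bmpr2 and 39.9% for Acvr2a, and removing the GC trend gave 0.39 and 0.40 (adjusted p = 0.115 and 0.184). Acta2, with 49.6%, kept -1.79 under that step, with an adjusted p of 0.09. None of the 3 was called when Sham+pimobendan replicate 2 or 3, or TAC+pimobendan replicate 2 or 3, was left out (adjusted p of 0.0834 to 0.17), and 5 pathway genes were called without Sham+pimobendan replicate 1 or without TAC+pimobendan replicate 1, the former without Acvr2a (adjusted p = 0.0593). Over all 11415 genes, 328 were called without Sham+pimobendan replicate 1 and 1225 without TAC+pimobendan replicate 1. Beside Acta2, the list of 9 smooth muscle and pericyte genes, which holds Acta2, summed to between 307 and 316 FPKM in TAC+pimobendan. In Sham+pimobendan the sum lay between 318 and 408 FPKM, with 1 of 9 called, Acta2 itself. Acta2 averaged 36.8 FPKM in TAC+pimobendan and 127 FPKM in Sham+pimobendan, whereas Rgs5 averaged 129 and 90.4 FPKM. Of the 9 log2 differences 4 were above 0 and 5 below, and 49% were above 0 over all genes. Of 8 endothelial genes, Pecam1 and Esam (2 of 8) were called lower in the same comparison, beside 4.89% called over all genes. Their median log2 difference over the 8 was -0.30, beside -0.01 over all genes, with 3 above 0 and 5 below. The list summed to between 1227 and 1602 FPKM in TAC+pimobendan and between 1349 and 1531 FPKM in Sham+pimobendan. Most of that sum was Fabp4, which averaged 1127 and 1014 FPKM. The part of the smooth muscle, pericyte and endothelial genes in the Acta2 result was not tested.

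**Figure D5:**
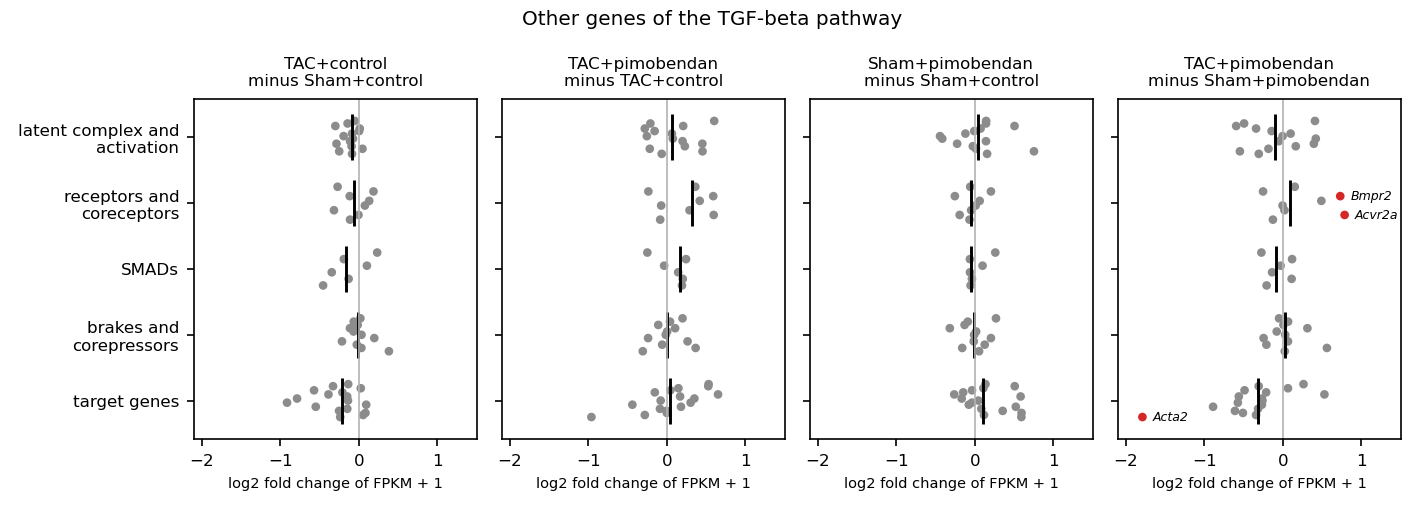
Log2 fold changes of FPKM + 1 (horizontal) of 56 other pathway genes in 5 lists; each point is a gene, the vertical bar the median of its list, and red marks a call. Bmpr2, Acvr2a and Acta2 are called between TAC+pimobendan and Sham+pimobendan, and no gene is in the other 3 panels.

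Where a list had no call, its gene with the smallest p is given. In TAC+control against Sham+control these were the integrin Itgb1 (-0.28 ± 0.13), the activin receptor Acvr2b (-0.32 ± 0.12), Smad3, which carries the TGF-beta signal to the nucleus (-0.34 ± 0.13), the ubiquitin ligase Nedd4l (-0.21 ± 0.10) and the actin-binding Tagln (-0.57 ± 0.23). Their adjusted p ranged from 0.556 to 0.593, and without Sham+control replicate 1 the value of Itgb1 was -0.14. The 17 targets had a median of -0.21 in that comparison, beside -0.06 for all genes. Of the targets 4 were higher and 13 lower, and 34.9% of all genes were higher. Between TAC+pimobendan and TAC+control the same rule gave Itgb1 (0.45 ± 0.13), Bmpr2 (0.59 ± 0.15), Smad5 (0.24 ± 0.11), Nedd4l (0.27 ± 0.10) and the proteoglycan Vcan (0.53 ± 0.18), with adjusted p of 0.0523 to 0.176. The 8 receptors had a median of 0.33 beside 0.10 for all genes, with 5 of 8 higher, beside 66% of all genes.

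In sham mice, the genes with the smallest p for the drug were Fbn1, the fibrillin to which latent complexes attach (0.75 ± 0.25), Bmpr2 (-0.25 ± 0.15), the inhibitor Smad6 (0.26 ± 0.13), Tgif1 (0.27 ± 0.12) and Loxl2 (0.58 ± 0.24), each with an adjusted p of 0.91. Single libraries moved 4 of these values by over 1.5 times. Fbn1 was 0.48 without Sham+pimobendan replicate 2 and Smad6 0.17 without Sham+pimobendan replicate 3, while Bmpr2 was -0.13 without Sham+control replicate 1 and Loxl2 0.29 without Sham+control replicate 2. In the lists without a call between TAC+pimobendan and Sham+pimobendan they were the gelatinase Mmp2 (-0.49 ± 0.14; adjusted p = 0.0577), Smad6 (-0.27 ± 0.13; adjusted p = 0.242; -0.18 without Sham+pimobendan replicate 3 and -0.15 without TAC+pimobendan replicate 3) and the proteoglycan Dcn (0.56 ± 0.15; adjusted p = 0.0524). The 17 targets had a median of -0.32 there, beside -0.01 for all genes. Of the targets 3 were higher and 14 lower, and 49% of all genes were higher. Fibroblast genes (9) summed to between 1176 and 1237 FPKM in TAC+pimobendan and between 1040 and 1198 FPKM in Sham+pimobendan, with 0 called. Gsn (710 and 712 FPKM on average) and Dcn (345 and 234 FPKM) made up most of these sums. Col1a1 (16.7 and 26.75 FPKM), Col1a2 (24.8 and 31.7) and Col3a1 (25.5 and 49.5) averaged lower in TAC+pimobendan. Of the 9 log2 differences 4 were above 0 and 5 below. Activated fibroblast genes (7) summed to between 12.8 and 17.2 FPKM and between 11.7 and 15.9 FPKM, also with 0 called. Of these 7, Tnc averaged under 1 FPKM in every group, Comp in all but TAC+control (1.09 FPKM) and Lox in all but TAC+pimobendan (1.03 FPKM). In TAC+control the activated fibroblast list summed to between 8.53 and 14.9 FPKM and in Sham+control to between 9.38 and 16.2 FPKM. Macrophage genes (9), a further source of TGF-beta, summed to between 357 and 464 FPKM in TAC+pimobendan and between 328 and 355 FPKM in TAC+control, with 0 called. The sums of both sham groups overlapped TAC+pimobendan, with 349 to 520 FPKM in Sham+pimobendan and 311 to 405 FPKM in Sham+control.

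For the interaction the rule gave Itgb1 (0.68 ± 0.18), Bmpr2 (0.85 ± 0.22), Smad6 (-0.51 ± 0.19), Dcn (0.53 ± 0.22) and Acta2 (-1.55 ± 0.52), with adjusted p of 0.0874 to 0.194. With the GC trend removed the interaction of Dcn was -0.031, the other sign. For the mean TAC effect it gave Mmp2 (-0.32 ± 0.10), Acvr2a (0.39 ± 0.12), Smad1 (-0.33 ± 0.12), Dcn (0.30 ± 0.11) and Acta2 (-1.01 ± 0.26), with adjusted p of 0.248 to 0.289. For the mean pimobendan effect 0 of the 56 were called, and it gave Fbn1 (0.60 ± 0.18), the receptor Bmpr1a (0.24 ± 0.11), Smad5 (0.091 ± 0.077), Tgif1 (0.23 ± 0.08) and Vcan (0.33 ± 0.13), with adjusted p of 0.316 to 0.632. Without Sham+control replicate 2 Smad5 was 0.056, and without Sham+pimobendan replicate 2 it was 0.034. Acta2 and Ctgf, the targets with mean TAC effects near -1, were both below their sham levels on average, and neither passed the test over all genes.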

How the data were processed

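Oligo(dT)-selected RNA of 12 left ventricles was primed with random hexamers and sequenced on DNA nanoballs, per the labels' protocols. The authors deposited an FPKM and a TPM value per gene and library and no counts. The build GRCm38 and the tools RSEM 1.2.12, HISAT2 2.0.4, DESeq2 1.4.5 and Bowtie2 2.2.5 appear, without roles, in the submitters' processing notes. The members and gene lists were chosen with earlier results of these data known.

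The values log2(FPKM + 1) entered limma 3.58.1 (R 4.3.3, variances moderated along expression). Genes that reached 1 FPKM in 3 or more libraries were tested (11415 of 17052), all 12 libraries entered 1 fit with 8 residual degrees of freedom, and Benjamini-Hochberg adjustment ran over the 11415 genes. A fold change on this scale understates the change of low genes. The fit was tested on simulated data with independent noise per gene and no trend on GC content. It recovered 53% of genes changed 1.5-fold and 92.5% of those changed 2-fold in FPKM + 1. How it behaves under the GC trends of these libraries was not tested. Transcript length and GC content came from GENCODE M21 and strands from there too. Fragment numbers are estimates from the steps between low FPKM values and transcript length less 100 bases.

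Every member was described in the comparisons between 2 groups; of each pathway list, the called genes (at most 4) or else the gene with the smallest p; of each marker list, its sum and its calls (single marker genes were named after their values were seen); and for each tested member the 3 genes with the highest Pearson r. Alternatives were TPM, median-ratio scaling, quantile normalization, no filter, a pseudocount of 0.1, the replicate number as a block, removal of the GC trend (loess, span 0.5; GC content known for 99.3% of tested genes), only the groups compared, and leaving out each library. Each library was 1 mouse, per the labels.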

Additional observations from a re-analysis of the deposited data

How the results depend on the processing

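No result on the 8 tested genes was called as fitted, and Tgfbr1 was the only one that crossed the threshold under an alternative. With TPM it reached 0.70 against TAC+control and 0.64 against Sham+pimobendan (adjusted p = 0.0349 and 0.0445), so 1 member was called in each, and 4 pathway genes against TAC+control. Over all genes TPM called 1170 against TAC+control and 734 against Sham+pimobendan. Leaving out 1 library, members called ranged from 0 to 1 for both comparisons and for the interaction, each time through TAC+pimobendan replicate 1. Without that library, 1190 of all genes were called against TAC+control, 1225 against Sham+pimobendan and 773 for the interaction. Pathway genes called ranged from 0 to 4 against TAC+control, 0 to 5 against Sham+pimobendan and 0 to 4 for the interaction. Against Sham+pimobendan the 3 pathway calls became 0 with no filter, with a pseudocount of 0.1, with the replicate block, with the GC trend removed, with both together and with only the groups compared. Over all genes, the 373 calls between TAC+pimobendan and TAC+control ranged from 0 to 1190 over the alternatives and the 558 between TAC+pimobendan and Sham+pimobendan from 0 to 1225.

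The signs that changed were of differences under 0.6 on the log2 scale, none of them called. Tgfb3 between TAC+control and Sham+control became 0.0298 with median-ratio scaling, 0.0684 with quantile normalization and 0.0335 with the GC trend removed, with or without the block. Between TAC+pimobendan and TAC+control it became -0.0561 with median-ratio scaling and -0.13 with quantile normalization, and Thbs1 became -0.0786, -0.14 and, with the GC trend removed, -0.0789. Tgfb1 between Sham+pimobendan and Sham+control became -0.0196 with the GC trend removed, and the interaction of Dcn -0.0306. Leaving out 1 library in turn, the TAC effect without the drug ranged from -0.26 to 0.00645 for Tgfb2, -0.14 to 0.045 for Tgfb3 and -0.24 to 0.0315 for Smad7. The drug effect in TAC mice ranged from -0.23 to 0.0359 for Tgfb1, -0.039 to 0.14 for Tgfb3, -0.12 to 0.70 for Ctgf and -0.75 to 0.80 for Thbs1. In sham mice it ranged from -0.11 to 0.23 for Tgfb1, -0.24 to 0.022 for Tgfb2, -0.66 to 0.88 for Thbs1 and -0.14 to 0.13 for Smad7. The causes were not tested.

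Same-numbered libraries of different groups correlated by -0.44 to 0.25 in their deviations from the group means, over 0.1 in 4 of 18 pairs (14 of 36 differently numbered pairs), so the numbers were not taken to pair mice. With the replicate block 0 members were called, and the calls over all genes fell to 1 against TAC+control and 0 against Sham+pimobendan. With 3 mice per group and an estimated 9100000 to 12800000 fragments per library, the 95% confidence interval of Thbs1 between TAC+pimobendan and TAC+control ran from -1.86 to 1.89 on the log2 scale, and Ltbp2 was tested only without the filter on low values.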
